A study of Mus musculus with 6 samples.

Results

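The genes described here are 10 genes of the neuronal cytoskeleton and the growth cone, Map2, Mapt, Map1b, Dcx, Tubb3, Nefl, Nefm, Nefh, Stmn2 and Gap43, in primary mouse cortical cultures treated with 10HDA or vehicle. They were chosen by symbol, with no measured value in the rule, although earlier results of these data were known. All 10 were found among the 43346 genes of the count table. RNA sequencing was performed on 6 libraries of total RNA from 3 cultures, numbered 1, 3 and 4, with 1 vehicle library and 1 10HDA library per culture. Vehicle was DMSO, and 10HDA (10-hydroxy-2-decenoic acid, a fatty acid of royal jelly) was given at 1 mM. All cultures were of brain cortex taken at gestational day 15.5 and carry the labels Cyp19-EGFP for the strain and SRY+ for the genotype, whereas the study's methods name C57BL/6 embryos for this experiment. The cultures are mixed cell populations, so that fewer neurons and less of a transcript per neuron cannot be told apart in these libraries. The sources used here do not state whether the 3 cultures came from separate litters, so p-values measure only the spread between these libraries.

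A neurite is held up by microtubules, which are polymers of tubulin, and by neurofilaments, and it is extended by the actin-rich growth cone at its tip. Tubb3 encodes class III beta-tubulin, the tubulin isotype used as a neuronal marker. MAP2, tau (Mapt) and MAP1B bind along microtubules, MAP2 mainly in dendrites and tau mainly in axons, and doublecortin (Dcx) binds microtubules in young, migrating neurons. Nefl, Nefm and Nefh encode the light, medium and heavy neurofilament subunits, which accumulate as axons mature. Stathmin-2 (Stmn2) binds tubulin dimers, and GAP-43 is a membrane-bound phosphoprotein of the growth cone.

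The libraries held 9144736 to 13367194 counts assigned to genes, so that 3 counts correspond to 0.221 to 0.336 CPM, the counts scaled to a common library size. The 10 genes took 1.45%, 1.61% and 1.67% of all counts in the vehicle libraries of cultures 1, 3 and 4, and 1.32%, 1.31% and 1.46% in the 10HDA libraries. Culture 1 stood apart: the summed level of 4 Y-linked genes was 9.07 and 9.3 CPM in its 2 libraries and 97.8 to 136 CPM in the other 4, although all are labelled SRY+. Fold changes without culture 1 are therefore given for the 9 tested genes. Medians without it are given for the other cytoskeleton lists and for the pan-neuronal, astrocyte and oligodendrocyte lineage markers. The libraries also differed by gene length. Across the 10520 tested genes, Spearman's rho between gene length and the deviation of log2 CPM from the gene's mean was -0.51, 0.46 and 0.29 in the vehicle libraries of cultures 1, 3 and 4, and -0.22, -0.17 and 0.18 in the 10HDA libraries.

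Promoter sequence is shown for the 4 genes with a window in the RefSeq table (build GRCm38.p6), because 3 of them, Map2, Map1b and Dcx, varied together across the libraries, and Tubb3 varied with another set of the genes. Each is the stretch upstream of both the RefSeq start and the start of the gene in the GENCODE M21 annotation, written 5′ to 3′ on the gene's strand. Capitals mark each match, on either strand, to 4 short motifs. The TATA box was searched as TATAAA. The letters of the GC box were GGGCGG. For the CCAAT box the search used the letters of its name, and for an E-box it used CAGCTG. The stretches are chr1:66175079-66175272 on the plus strand for Map2, chr13:99516603-99516852 on the minus strand for Map1b, chrX:143933312-143933469 on the minus strand for Dcx, and chr8:123411303-123411423 on the plus strand for Tubb3.
Map2: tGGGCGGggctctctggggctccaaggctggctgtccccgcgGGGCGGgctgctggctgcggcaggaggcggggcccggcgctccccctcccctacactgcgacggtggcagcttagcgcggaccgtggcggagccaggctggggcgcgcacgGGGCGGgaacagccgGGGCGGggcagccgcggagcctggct
Map1b: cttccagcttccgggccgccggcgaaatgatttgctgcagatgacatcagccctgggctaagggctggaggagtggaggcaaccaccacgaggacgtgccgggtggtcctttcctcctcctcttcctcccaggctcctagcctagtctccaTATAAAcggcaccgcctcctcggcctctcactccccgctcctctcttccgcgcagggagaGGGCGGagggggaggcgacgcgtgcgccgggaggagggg
Dcx: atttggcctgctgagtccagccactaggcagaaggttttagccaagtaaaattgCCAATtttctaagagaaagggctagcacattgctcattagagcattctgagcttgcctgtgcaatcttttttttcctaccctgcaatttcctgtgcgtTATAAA
Tubb3: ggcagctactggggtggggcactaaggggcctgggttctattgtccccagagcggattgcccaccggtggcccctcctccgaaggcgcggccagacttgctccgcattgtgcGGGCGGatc
The Map2 stretch held 4 GC boxes, which occur at least once in 23.6% of the 32851 RefSeq windows over the same stretch, and 22 CpG dinucleotides against a median of 4 in those windows. The Map1b stretch held 1 TATA box (12.4% of windows), 1 GC box (32.7%) and 19 CpG dinucleotides against a median of 6. The Dcx stretch held the letters of 1 TATA box (7.57%) and 1 CCAAT box (21.2%), no GC box, and 1 CpG dinucleotide against a median of 3. Its TATAAA letters were the last bases of the stretch, directly before the GENCODE start, and whether they act as a TATA box was not tested. The Tubb3 stretch held 1 GC box (12.9%) and 8 CpG dinucleotides against a median of 2. No matches overlapped, and none of the 4 stretches held the E-box letters. None of the 4 motifs was present in all 3 stretches of Map2, Map1b and Dcx, which differ in length (194, 250 and 158 bases). Nefm, which varied with them, has no window, and shared control of these genes was not tested. Map2, Map1b and Dcx also have the longest exonic sequence of the 10 genes, and the libraries differed by gene length. The grouping was made after the values were seen.

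To compare levels between genes, CPM was divided by gene length in kilobases. In vehicle libraries, Tubb3 had the highest level, 886 ± 98.6 CPM per kb (SD, n = 3), followed by Gap43 at 685 ± 38.6 CPM per kb. Map1b followed at 475 ± 113 CPM per kb and Mapt at 402 ± 24 CPM per kb, and the libraries of this pair overlapped. Stmn2 was at 247 ± 18.6 CPM per kb, while Dcx (133 ± 17.2 CPM per kb) and Map2 (120 ± 18.1 CPM per kb) again overlapped. These 7 genes lay between the 96.7th and the 99.7th percentile of the tested genes. The neurofilament subunits were far lower, at 20.8 ± 0.242 CPM per kb for Nefl, 8.6 ± 1.73 CPM per kb for Nefm and 2.07 ± 0.353 CPM per kb for Nefh. Nefl was at the 68.1st percentile, Nefm at the 36.8th and Nefh at the 2.93rd. These ranks are against the tested genes, which reached 10 CPM in 3 or more libraries. Nefh, at 8.25 CPM with vehicle, was below that minimum, so its low rank follows in part from it. With 10HDA the order of the 10 means was the same, from 745 ± 2.79 CPM per kb for Tubb3 to 1.66 ± 0.179 CPM per kb for Nefh.

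**Figure D1:**
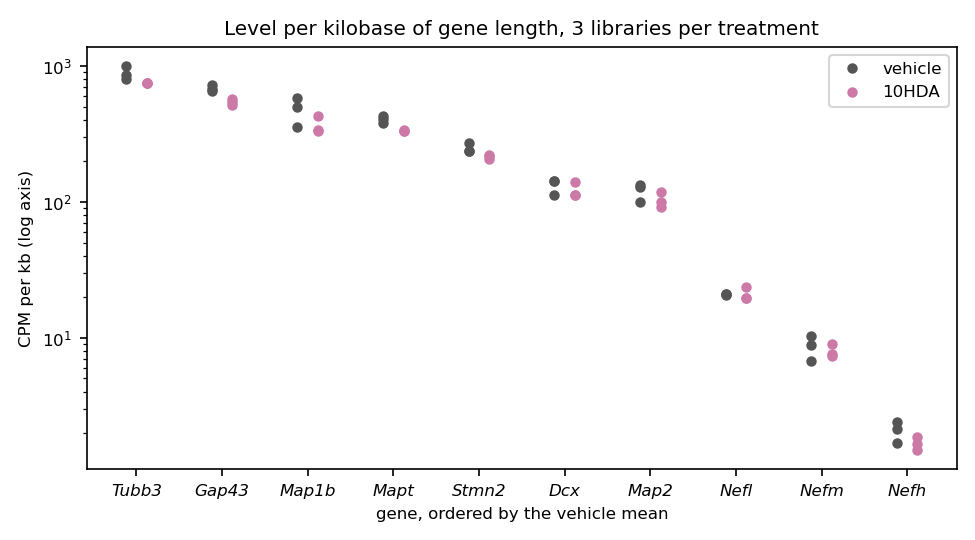
Level of each gene in CPM per kilobase of gene length on a log axis, with 1 point per library and 3 libraries per treatment, ordered by the vehicle mean. Tubb3 was highest at 886 CPM per kb and Nefh lowest at 2.07 CPM per kb in vehicle libraries, and the order of the means was the same with 10HDA.

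To determine whether 10HDA changed these transcripts, libraries were compared with edgeR's quasi-likelihood test over the 10520 genes that reached 10 CPM in 3 or more libraries. The test covered 9 of the 10 genes, and Nefh did not reach that level. Of the 9 tested genes, 8 had a log2 fold change below 0 with 10HDA (5 when scaled to pan-neuronal markers), as had 52.1% of all tested genes, and their median was -0.22 against -0.0095 over all tested genes. None of the 9 passed an adjusted p of 0.1 (Benjamini-Hochberg), a threshold that 0.627% of all tested genes passed, and 2, Gap43 and Mapt, had an unadjusted p under 0.05, as did 10.1% of all tested genes. DESeq2 called 1 of the 9, Gap43 (adjusted p = 0.0782), where it called 1.62% of all tested genes, and limma-voom and edgeR's likelihood ratio test called none. With culture as a block in the edgeR model, which compares the 2 libraries of each culture, 2 genes were called, Gap43 and Map1b, both lower, where 8.98% of all tested genes were called and 5.08% were called lower. The fold changes hardly moved with the block, but their standard errors fell, as the plot of fold changes shows.

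**Figure D2:**
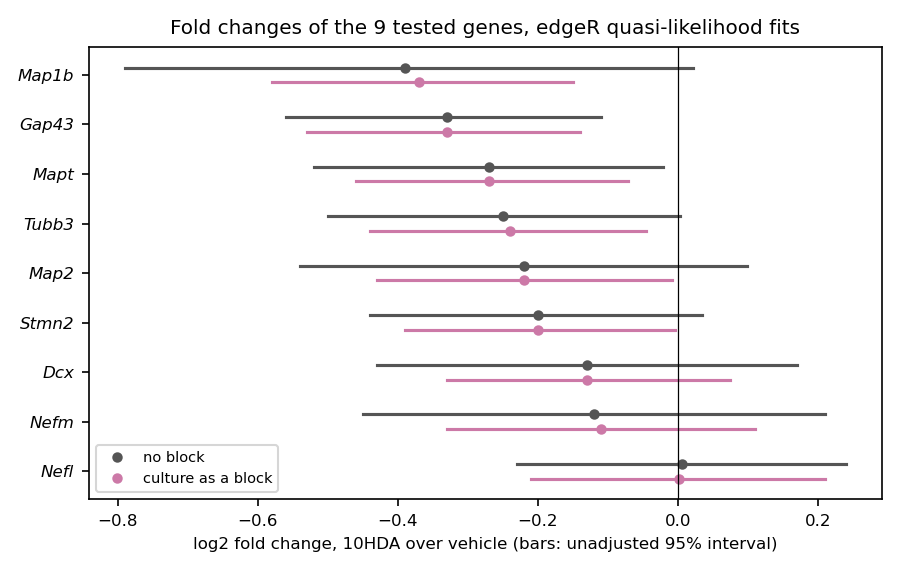
Log2 fold change of the 9 tested genes, 10HDA over vehicle, with unadjusted 95% intervals as bars, without (grey) and with (pink) culture as a block in the edgeR model. Points run from -0.39 for Map1b to 0.0063 for Nefl without the block; Gap43 and Map1b had an adjusted p under 0.1 with the block.

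All 3 libraries with 10HDA were below all 3 with vehicle for 4 of the 9 tested genes, Mapt, Tubb3, Stmn2 and Gap43, and for 7.44% of all tested genes. These 4 and Map1b were lower with 10HDA in 3 of 3 cultures, which held for 21% of all tested genes. Without culture 1, both remaining 10HDA libraries were below both vehicle libraries for 7 of the 9 genes, all but Nefl and Nefm, as for 20% of all genes tested there. The fit without culture 1 called none of the 9, and with the block it called Map1b and Map2, where 8.49% of all genes tested passed. With libraries scaled to the mean log count of the pan-neuronal markers, 5 of the 9 were lower and their median log2 fold change was -0.0051, against 0.21 for all tested genes and -0.068 for the markers themselves.

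The microtubule subunit gene Tubb3 (chr8:123411424-123422015, plus strand, GRCm38) stood at 1859, 1502 and 1604 CPM in the vehicle libraries of cultures 1, 3 and 4, and at 1396, 1386 and 1392 CPM in their 10HDA libraries. The 10HDA libraries lay within a few CPM of each other and below all vehicle libraries, of which that of culture 1 was the highest. The log2 fold change was -0.25 ± 0.12 (SE) with an adjusted p of 0.5 in edgeR, and -0.24 ± 0.097 with an adjusted p of 0.148 with culture as a block. Within cultures 1, 3 and 4 the log2 ratio was -0.41, -0.12 and -0.2, and without culture 1 the fold change was -0.14 ± 0.15 on the log2 scale. Relative to its mean, Tubb3 had the smallest spread of the 10 genes between 10HDA libraries, 1391 ± 5.22 CPM against 1655 ± 184 CPM with vehicle.

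Among the genes whose products bind along microtubules, tau (Mapt, chr11:104231390-104332090, plus strand) was at 3043, 2839 and 3199 CPM with vehicle and at 2477, 2497 and 2561 CPM with 10HDA. The 2 groups did not overlap. Its log2 fold change was -0.27 ± 0.11 (SE), with an unadjusted p of 0.0357 and an adjusted p of 0.455 in edgeR, and an adjusted p of 0.104 with the block, just outside the threshold. Without culture 1 it was -0.24 ± 0.17. Map2 (chr1:66175273-66442583, plus strand) was at 1638, 2105 and 2194 CPM with vehicle and at 1639, 1507 and 1945 CPM with 10HDA. The groups overlapped because the vehicle library of culture 1 was about as low as the 10HDA libraries. The log2 ratio of Map2 was 0.00072 in culture 1, -0.48 in culture 3 and -0.17 in culture 4. Its log2 fold change was -0.22 ± 0.15 with an adjusted p of 0.616 in edgeR, and of 0.231 with the block. Without culture 1 it was -0.3 ± 0.18 (adjusted p = 0.819), and with the block added -0.31 ± 0.1 (adjusted p = 0.0403). Without culture 3 it was -0.095 ± 0.19 (adjusted p = 0.941), and with the block added -0.085 ± 0.13 (adjusted p = 0.768), so the size and the call of Map2 depended on the cultures included.

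Map1b (chr13:99421446-99516540, minus strand), an early microtubule-associated protein of growing axons, had the most counts of the 10 genes and the widest spread, with 4179, 5893 and 6828 CPM with vehicle and 3992, 3902 and 5044 CPM with 10HDA. The vehicle library of culture 1 again lay among the 10HDA libraries, while the other 2 vehicle libraries lay above all of them. The log2 ratio was -0.066 in culture 1, -0.59 in culture 3 and -0.44 in culture 4. Its log2 fold change was -0.39 ± 0.18 (SE) with an adjusted p of 0.512 in edgeR, and with the block -0.37 ± 0.11 with an adjusted p of 0.0397. With the block and without culture 1 the value was -0.5 ± 0.096 and the adjusted p 3.79e-05. That fit rests on 2 cultures, so its p leans on the spread that edgeR shares across genes. The call was lost with the block without culture 3 or without culture 4. Dcx (chrX:143855842-143933311, minus strand) was at 1430, 1813 and 1801 CPM with vehicle and at 1431, 1420 and 1754 CPM with 10HDA, so that the groups overlapped. Its log2 ratio was 0.0013, -0.35 and -0.038 in cultures 1, 3 and 4, and its log2 fold change was -0.13 ± 0.14 (95% interval -0.43 to 0.17, adjusted p = 0.748 in edgeR), or -0.17 ± 0.17 without culture 1. The ratio of Map2 to Dcx in CPM was 1.15, 1.16 and 1.22 with vehicle and 1.15, 1.06 and 1.11 with 10HDA, and the groups did not overlap by a small margin.

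The growth cone gene Gap43 (chr16:42248442-42340651, minus strand) had the smallest p of the 10 genes. Its level was 1110, 998 and 1022 CPM with vehicle and 786, 822 and 873 CPM with 10HDA, and every 10HDA library lay well below every vehicle library. The log2 fold change was -0.33 ± 0.1 (SE), a change of -20.7%, with an unadjusted p of 0.00787 and an adjusted p of 0.301 in edgeR, and with the block the adjusted p was 0.0371. The log2 ratio was -0.5, -0.28 and -0.23 in cultures 1, 3 and 4. Without culture 1 the fold change was -0.23 ± 0.1 on the log2 scale with the block (adjusted p = 0.182), and the call was lost there and without culture 4. Stmn2 (chr3:8509360-8561606, plus strand) was at 1506, 1330 and 1323 CPM with vehicle and at 1222, 1165 and 1230 CPM with 10HDA. The groups did not overlap, and the log2 fold change was -0.2 ± 0.11 with an adjusted p of 0.536 in edgeR and of 0.238 with the block. Without culture 1 the Stmn2 value was -0.13 ± 0.15. The ratio of Stmn2 to Gap43 in CPM was 1.36, 1.33 and 1.29 with vehicle and 1.55, 1.42 and 1.41 with 10HDA. It was higher in 3 of 3 cultures with no overlap between the groups, so that Gap43 was lower relative to Stmn2 with 10HDA. How often ratios of other gene pairs separate the groups was not computed, here or for Map2 to Dcx. Stmn2 and Gap43 also differ in length (5.602 and 1.523 kb), and the libraries differed by gene length.

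The libraries of the 2 treatments overlapped for all 3 neurofilament genes. Nefl (chr14:68083863-68089095, plus strand) was at 70.2, 69.3 and 70.9 CPM with vehicle and at 66.4, 65.5 and 79.7 CPM with 10HDA. The vehicle libraries lay inside the range of the 10HDA libraries, and the log2 fold change was 0.0063 ± 0.11 (SE, 95% interval -0.23 to 0.24, adjusted p = 0.987 in edgeR), or 0.067 ± 0.15 without culture 1. Nefm (chr14:68082590-68124846, minus strand) was at 39.2, 50.9 and 59.1 CPM with vehicle and at 43.8, 42.1 and 51.7 CPM with 10HDA. It was higher with 10HDA in culture 1 and lower in cultures 3 and 4, with a log2 fold change of -0.12 ± 0.15 (95% interval -0.45 to 0.21, adjusted p = 0.788 in edgeR), or -0.21 ± 0.16 without culture 1. Nefl and Nefm share 1108 exonic bases on opposite strands in the GENCODE M21 annotation, and the strand setting of the counting is not given in the sources used here, so reads of these 2 genes may not have been told apart. Nefh (chr11:4938754-4948064, minus strand) had 53 to 112 counts per library, that is 8.52, 6.73 and 9.51 CPM with vehicle and 7.37, 6.64 and 5.94 CPM with 10HDA. It was lower with 10HDA in 3 of 3 cultures, with log2 ratios of -0.21, -0.02 and -0.67, although the groups overlapped. With the minimum lowered to 1 CPM in 3 libraries its log2 fold change was -0.29 ± 0.19 (95% interval -0.7 to 0.12, adjusted p = 0.603 in edgeR).

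**Figure D3:**
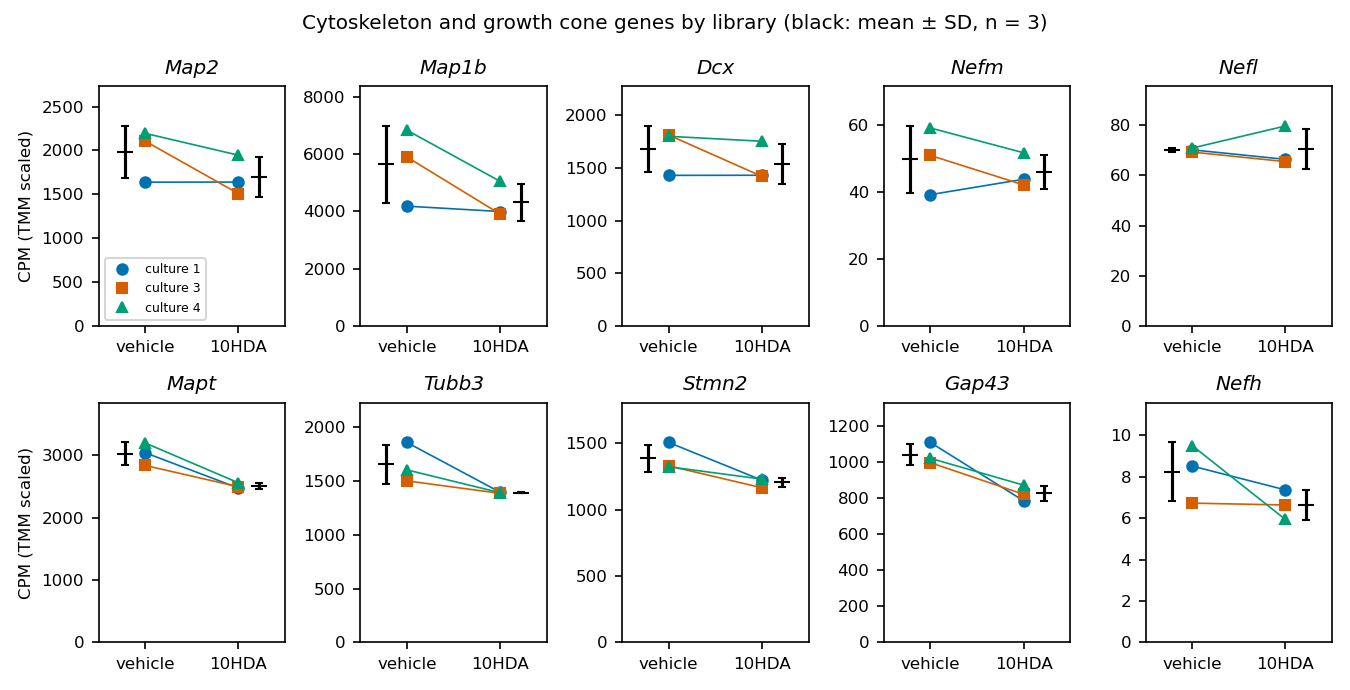
CPM (scaled by edgeR's TMM factors) of each gene by treatment, with 1 line per culture joining its vehicle and 10HDA libraries and the mean ± SD of each group in black (n = 3). For Mapt, Tubb3, Stmn2 and Gap43 the 10HDA libraries lie below all vehicle libraries, and for Map2, Map1b, Dcx and Nefm the vehicle library of culture 1 lies below the other 2 vehicle libraries.

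Across the 6 libraries, the genes fell into sets that were named after their values were seen. Map2, Map1b, Dcx and Nefm varied together, with Pearson's r of log2 CPM between 0.91 and 0.97 over their 6 pairs. Mapt, Tubb3, Stmn2 and Gap43 formed the other set, with r between 0.8 and 0.96, and r between genes of different sets ranged from -0.19 to 0.65. These correlations are descriptions over 6 libraries that share cultures and treatments. In the first set the vehicle library of culture 1 was low, and in the second it was the highest or, for Mapt, between the other 2.

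Map2, Map1b and Dcx had the longest exonic sequence of the 10 genes, at 16.449, 11.852 and 12.647 kb in the count table, and Gap43 and Tubb3 the shortest, at 1.523 and 1.868 kb. The difference between treatments followed length in opposite directions in cultures 1 and 3. Over the 10 genes, Spearman's rho between length and the within-culture log2 ratio was 0.73 in culture 1, -0.62 in culture 3 and 0.12 in culture 4, and over all 10520 tested genes it was 0.23, -0.38 and -0.16. The test was repeated with a smooth trend on gene length removed from each library, a setting chosen after the data were seen. In that fit Map2 went from -0.22 to -0.12 ± 0.087 on the log2 scale and Dcx from -0.13 to -0.056 ± 0.086, while Gap43 was at -0.35 ± 0.085, Tubb3 at -0.26 ± 0.082 and Mapt at -0.24 ± 0.097. None of the 9 was called in that fit by edgeR, where 0.875% of all tested genes were called. An unadjusted p under 0.05 was found for 4 of the 9 and for 1365 of the 10520 tested genes. Adding the block called 4, Gap43 (adjusted p = 0.00752), Map1b (0.0365), Tubb3 (0.0417) and Mapt (0.0869), where 12.6% of all tested genes were called.

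**Figure D4:**
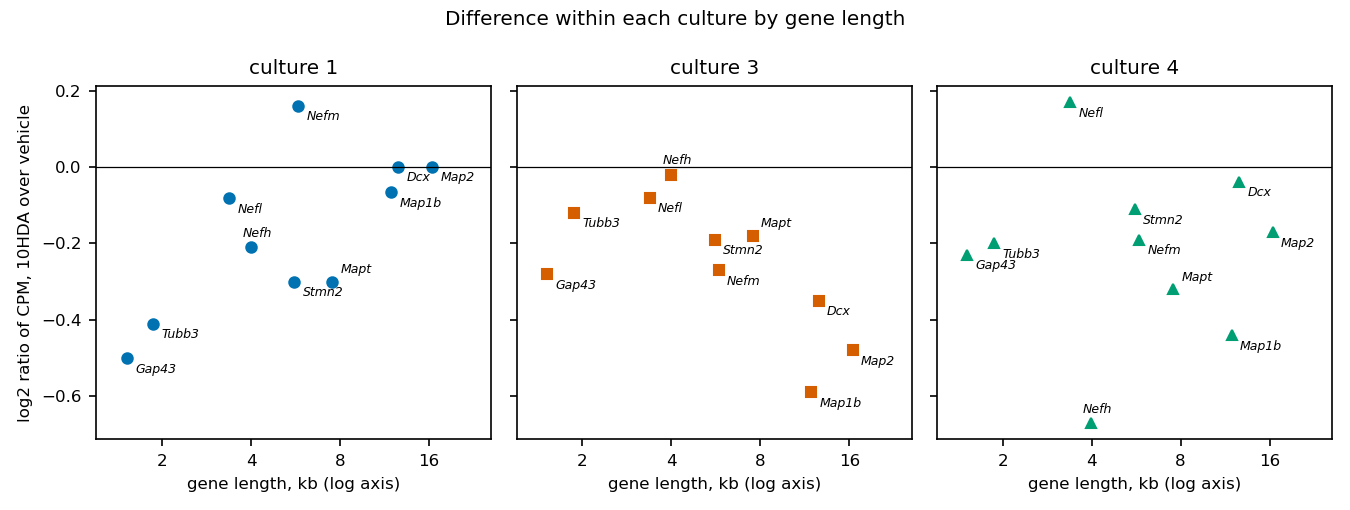
Log2 ratio of CPM, 10HDA over vehicle, within cultures 1, 3 and 4 against gene length in kilobases on a log axis, with 1 point per gene and a line at 0. The short genes Gap43 and Tubb3 were the lowest in culture 1 (-0.5 and -0.41), and the long genes Map1b, Map2 and Dcx were the lowest in culture 3 (-0.59, -0.48 and -0.35).

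The median log2 ratio of the 10 genes was -0.14, -0.23 and -0.2 within cultures 1, 3 and 4, with 7, 10 and 9 of the 10 genes lower. Over all tested genes the medians were -0.0022, -0.016 and -0.0028. The median of the 9 tested genes was negative in each culture, but which genes were lowest differed between cultures.

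Other cytoskeleton and growth cone genes were examined in 9 lists of 154 genes, of which 147 were tested. Of these, 117 were lower and 30 were higher, with a median log2 fold change of -0.13, where 52.1% of all tested genes were lower. None passed an adjusted p of 0.1 in edgeR or limma-voom and 20 had an unadjusted p under 0.05 (10.1% of all tested genes did), whereas DESeq2 and edgeR's likelihood ratio test each called 3. With the block 17 were called lower and 3 higher, 13.6% of the 147 against 8.98% of all tested genes. The direction of most of these lists turned when libraries were scaled to the pan-neuronal markers, whose own median was -0.31. The medians of 7 of the 9 lists were then above 0, the exceptions being the tubulins (-0.0034) and the axonal spectrins and ankyrins (-0.026). The median of all tested genes moved to 0.21 under that scaling. Of the 9 lists, 8 lay below it, all but the other intermediate filaments (0.22). As that scaling moves all genes up, this order repeats the fit above and is no further result. With DESeq2 size factors or upper quartile scaling only the other intermediate filaments were above 0 (0.011 and 0.028). With library size alone these genes (0.076) and the kinases and phosphatases (0.01) were, and the stathmins and membrane proteins were at -0.0051.

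All 11 tested tubulins were lower, with a median log2 fold change of -0.24. The smallest p was that of the alpha-tubulin gene Tuba4a, at 31.6 ± 6.5 CPM with vehicle and 18.7 ± 1.49 CPM with 10HDA (SD, n = 3; log2 fold change -0.76 ± 0.16, adjusted p = 0.112 in edgeR, 0.000291 with the block). Of 24 microtubule-associated protein genes 22 were lower, with a median of -0.12 and the smallest p for Map1a (log2 fold change -0.49 ± 0.15, adjusted p = 0.296 in edgeR, 0.00271 with the block). Of 13 severing and tubulin-modifying enzymes 10 were lower (median -0.096), with the smallest p for the polyglutamylase subunit gene Ttll1 (log2 fold change -0.3 ± 0.14, adjusted p = 0.5 in edgeR). Of 19 kinases and phosphatases that act on these proteins 15 were lower (median -0.067), with the smallest p for the CDK5 activator Cdk5r2 (log2 fold change -0.32 ± 0.097, adjusted p = 0.296 in edgeR).

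All 12 tested genes of the axonal spectrin and ankyrin skeleton were lower, with a median of -0.24, from -0.43 ± 0.16 for the beta-spectrin gene Sptbn1 (adjusted p = 0.401 in edgeR, 0.00763 with the block) to -0.015. All 5 collapsin response mediators, which bind tubulin downstream of guidance cues, were lower with a median of -0.13, and Crmp1 had the smallest p (log2 fold change -0.3 ± 0.12, adjusted p = 0.45 in edgeR). Of 14 other stathmins and growth cone membrane proteins 9 were lower (median -0.081), with the smallest p for Stmn4 at -0.42 ± 0.11 (adjusted p = 0.205 in edgeR, 0.00672 with the block), while Stmn1 was at 0.0084 ± 0.12. Of 42 actin regulators 29 were lower (median -0.099), and the smallest p belonged to a gene that was higher, the muscle-type cofilin Cfl2 (log2 fold change 0.39 ± 0.13, adjusted p = 0.354 in edgeR, 0.0105 with the block). The 7 other intermediate filament genes were divided, with 4 lower and 3 higher. Among them Vim, the vimentin gene of glial and progenitor cells, was higher at 159 ± 16 CPM with vehicle and 198 ± 7.43 CPM with 10HDA (log2 fold change 0.32 ± 0.1, adjusted p = 0.311 in edgeR, 0.0408 with the block), and Ina, a neuronal intermediate filament, was at -0.19 ± 0.11.

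Without culture 1 the medians were -0.097 for the tubulins, -0.091 for the microtubule-associated proteins, -0.097 for the severing and modifying enzymes, -0.053 for the kinases and phosphatases, -0.27 for the spectrins and ankyrins, -0.18 for the collapsin response mediators, -0.11 for the stathmins and membrane proteins, -0.05 for the actin regulators and -0.0098 for the other intermediate filaments. Other omissions also moved a median by over 1.5 times. Leaving out the vehicle library of culture 1 put the tubulins at -0.13. With the vehicle library of culture 4 left out, the median was -0.12 for the spectrins and ankyrins, -0.045 for the microtubule-associated proteins, -0.06 for the severing and modifying enzymes, -0.025 for the kinases and phosphatases and -0.053 for the actin regulators. Without the vehicle library of culture 3, it was -0.0063 for the stathmins and membrane proteins and -0.037 for the kinases and phosphatases. The actin regulators were at -0.062 without the vehicle library of culture 1 and at -0.065 without culture 3. The enzymes were at -0.056 and the kinases and phosphatases at -0.028 without the 10HDA library of culture 3, and at -0.049 and -0.04 without culture 3. The median of the other intermediate filaments, -8.9e-05 with all libraries, ranged from -0.13 to 0.06.

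**Figure D5:**
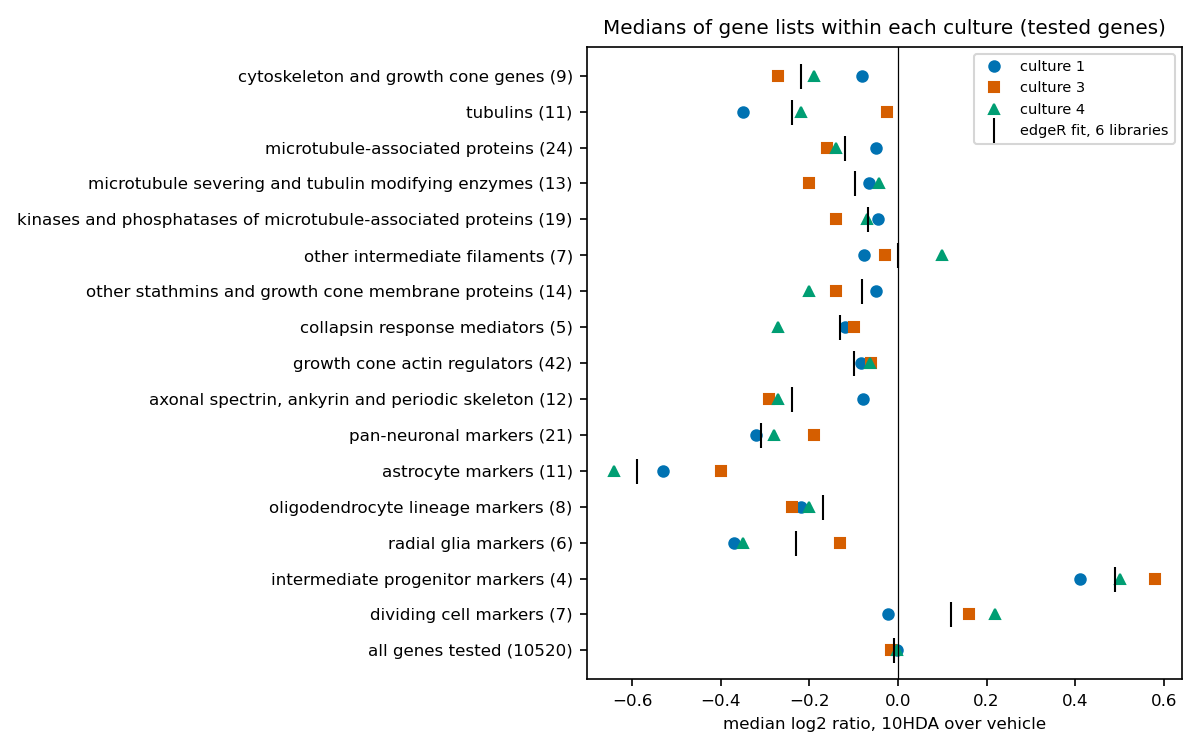
Median log2 ratio, 10HDA over vehicle, of the tested genes of each list within each culture (symbols) and in the edgeR fit over 6 libraries (black bars), with the number of tested genes in parentheses. The median of the cytoskeleton and growth cone genes was -0.22 in the fit, that of the pan-neuronal markers -0.31, that of the astrocyte markers -0.59, that of the intermediate progenitor markers 0.49 and that of all tested genes -0.0095.

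Markers of the cell types that such cultures can hold moved as follows beside these genes. Of 21 pan-neuronal markers outside the cytoskeleton 18 were lower with 10HDA, with a median log2 fold change of -0.31 and a summed level of 5536 to 6358 CPM with vehicle and 5013 to 5348 CPM with 10HDA. No marker of this list was called in edgeR, while 11 had an unadjusted p under 0.05 (10.1% of all tested genes did). The block called 12 of them lower, where it called 5.08% of all tested genes lower. In edgeR without the block, the smallest p was that of the neuronal splicing factor Rbfox3 (log2 fold change -0.42 ± 0.12, adjusted p = 0.248, 0.0152 with the block). The median of the pan-neuronal list was -0.23 without culture 1 and -0.16 without the culture 4 vehicle library. Of 11 tested astrocyte markers 9 were lower and 5 fell by the edgeR test, among them Aldoc (-0.81 ± 0.11, adjusted p = 0.0189), Aldh1l1 (-1.02 ± 0.14, adjusted p = 0.0233) and Gfap (-1.28 ± 0.21, adjusted p = 0.0428), and the summed level of the whole list was 1352 to 1652 CPM with vehicle and 1039 to 1270 CPM with 10HDA. The oligodendrocyte lineage marker Cspg4 fell by 0.92 on the log2 scale (SE 0.16, adjusted p = 0.0428 in edgeR). Pdgfrb, of the endothelial and pericyte list, fell by 1.07 (SE 0.18, adjusted p = 0.0428 in edgeR). Rgs5, Kcnj8, Abcc9 and Vtn of the same list were at 0.339, 0.0305, 0.0305 and 0.141 CPM with vehicle, about or below 3 counts. The level of pericytes was therefore not read from Pdgfrb. These 7 calls depended on the libraries included: in the marker lists edgeR called none without culture 1, without culture 3, without the vehicle library of culture 3 or without the 10HDA library of culture 1. It called 2 without the vehicle library of culture 4, 4 without culture 4 and 13 without the 10HDA library of culture 4. The astrocyte median was -0.59 with all libraries and -0.56 without culture 1. Of 8 tested oligodendrocyte lineage markers 5 were lower, and the whole list summed to 366 to 472 CPM with vehicle and 278 to 396 CPM with 10HDA. The median of this list was -0.17 with all libraries and -0.0085 without culture 1. It ranged from -0.33 without the 10HDA library of culture 3 to 0.12 without the vehicle library of culture 3, so its direction was not stable.

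All 4 tested intermediate progenitor markers were higher, with Insm1 at 0.74 ± 0.18 (adjusted p = 0.151 in edgeR, 8.46e-05 with the block). Their whole list summed to 118 to 137 CPM with vehicle and 152 to 198 CPM with 10HDA. Among its untested genes, Eomes was at 2.52 CPM with vehicle and 2.63 CPM with 10HDA, and lower in 2 of 3 cultures. Neurog2 was higher, at 3.57 and 5.03 CPM. Neurog1 and Neurod4 were at 0.0283 and 0.17 CPM with vehicle, about or below 3 counts. Of 6 radial glia markers 5 were lower, Tnc at -0.44 ± 0.12 (adjusted p = 0.244 in edgeR), and of 7 markers of dividing cells 6 were higher, Cdk1 at 0.33 ± 0.19 (adjusted p = 0.577 in edgeR). Microglia markers summed to at most 1.65 CPM, with Tmem119 at 0 in all libraries, and endothelial and pericyte markers to at most 19.4 CPM, most of it Pdgfrb. Meningeal fibroblast markers summed to at most 13.5 CPM with Slc6a13 at 0 in all libraries. The part of these marker shifts in the differences of the 10 genes was not tested.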

How the data were processed

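Total RNA from 3 primary cortical cultures, vehicle and 10HDA, was made into 6 libraries with a strand-specific kit and sequenced as 50 bp single-end reads. Subjunc (Subread 1.4.4) was the authors' aligner, run on untrimmed reads against mm10, and they deposited raw read counts per gene from featureCounts with Gencode models; the strand setting is not given in the sources used here. All rows were genes and no per-sample column was left unused. CPM, TMM factors and quasi-likelihood tests were computed from the deposited counts with edgeR 4.0.16 (R 4.3.3) over genes that reached 10 CPM in 3 or more libraries, with Benjamini-Hochberg adjustment at 0.1. The study's methods name edgeR, TMM, this filter and this threshold, but neither the kind of edgeR test nor a term for culture; the fit here has no block. DESeq2 1.42.0 and limma 3.58.1 were alternatives. Within-culture log2 ratios used CPM + 0.1. Symbols were matched for 98% of genes, and scripts were tested on simulated data. The biological coefficient of variation was 0.116, and 0.0849 with the block. An exact permutation test of 3 against 3 libraries cannot give a p below 0.1.

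The culture number in the labels pairs the libraries: deviations from the group means correlated at 0.37, 0.23 and 0.62 within cultures and at -0.45 to 0.19 between them. The 10 genes and the lists were chosen with earlier results of these data known. All 10 genes are named; from each other list, the genes past the threshold, at most 3, or otherwise the one with the smallest p, and a few more of these lists chosen after their values were seen. Coordinates are those of GENCODE M21 (GRCm38). Mapt, Nefl, Nefm, Nefh, Stmn2 and Gap43 have no promoter window here, and protein sequences were not used here.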

Additional observations from a re-analysis of the deposited data

How the results depend on the processing

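The direction of Map2, Mapt, Map1b, Tubb3 and Gap43 was the same under the 21 other settings that give a fold change, and 11 further settings were chosen after seeing the data. The number of the 9 genes called was 0 in the report's fit, where 0.627% of all tested genes were called. It was 1 with DESeq2 (1.62% of all tested genes) and 1 (Map1b) without a filter on low counts (2.37%). With culture as a replicate block it was 2 (8.98%), also with DESeq2 size factors (8.96%), upper quartile scaling (8.97%) or the lower filter (7.5%). With the block it was 1 with library size alone (12%), 3 with DESeq2 (3.7%) and 4 with the length trend removed (12.6%). With the block and without culture 1, 3 or 4 it was 2, 1 and 0 (8.49%, 10.6% and 3.47%). The members' median log2 fold change moved from -0.22 to -0.0051 when scaled to the pan-neuronal markers and to 0.0076 with the block added, and stayed between -0.18 and -0.25 when libraries were left out. Scaled to the pan-neuronal markers, Dcx was at 0.085, Nefm at 0.10 and Stmn2 at 0.022, and with the block Dcx was at 0.096, Nefm at 0.12, Stmn2 at 0.026 and Map2 at 0.0076; that scaling moves all genes up. With replicates left out, Nefm ranged from -0.24 to 0.039 (without vehicle replicate 4). Nefl was at 0.23 when scaled to the pan-neuronal markers, with and without the block, at -0.0019 with limma-voom, at -0.088 without 10HDA replicate 4 and 0.058 without 10HDA replicate 3, at -0.075 without culture 4 with and without the block, and at -0.0024 and -0.0066 with the length trend removed, without and with the block. Over all genes, 66 were called, and 170 with DESeq2, 218 with the likelihood ratio test, 636 without a filter, 43 at a threshold of 0.05 and 945 with the replicate block; with replicates left out the number ranged from 0 (without 10HDA replicate 1 or without culture 3) to 355 (without 10HDA replicate 4), and was 35 without culture 4. In the other cytoskeleton lists, with 0 called, 1 was called with pan-neuronal scaling, 3 with DESeq2, 3 with the likelihood ratio test, 6 without a filter, 20 with the block and 0 to 2 with replicates left out. In the marker lists, with 7 called, the numbers were 4, 13, 15, 22, 28 and 0 to 13. The cause of these changes was not tested. Nefh, with 53 to 112 counts per library, was below the minimum level of the test.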

Other observations

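The genes whose log2 CPM over the 6 libraries was most like the mean of the 9 tested cytoskeleton and growth cone genes, among 10511 other tested genes, were Magi3 (Pearson's r = 0.997), Dhx8 (0.996), Gabrg3 (0.996), Ccdc6 (0.996) and Dock9 (0.995). Magi3 encodes a membrane-associated scaffold protein, Gabrg3 a subunit of the GABA-A receptor and Dock9 an exchange factor for Cdc42. Their log2 fold changes with 10HDA were -0.35 ± 0.13, -0.13 ± 0.099, -0.4 ± 0.17, -0.16 ± 0.096 and -0.43 ± 0.14 (SE), with adjusted p between 0.312 and 0.675 in edgeR. This ranking over 6 libraries describes the likeness of the patterns and was not tested.

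Ratios between neurofilament subunits in CPM did not separate the treatments. Nefm over Nefl was 0.558, 0.734 and 0.834 in the vehicle libraries of cultures 1, 3 and 4, and 0.659, 0.642 and 0.648 in their 10HDA libraries, so the 10HDA libraries lay within the range of the vehicle libraries and closer together. Nefh over Nefl was 0.121, 0.0971 and 0.134 with vehicle and 0.111, 0.101 and 0.0745 with 10HDA. Mapt over Map1b was 0.728, 0.482 and 0.469 with vehicle and 0.621, 0.64 and 0.508 with 10HDA, highest in culture 1 among the vehicle libraries and overlapping between treatments.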
